A study of Mus musculus with 19 samples.

Results

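The 10 genes described here belong to the tumor necrosis factor (TNF) family, 5 receptors and 5 ligands, and were followed through 19 primary mouse sarcomas. The receptors were Tnfrsf4 (OX40), Tnfrsf18 (GITR), Tnfrsf9 (4-1BB), Cd27 and Cd40, and the ligands were Tnfsf4 (OX40L), Tnfsf18 (GITRL), Tnfsf9 (4-1BBL), Cd70 and Cd40lg (CD40L). All 10 were found by symbol among the 48795 genes of the deposited table. They were selected on measured values, because an earlier look at the same tumors had shown part of this set to differ between the genotypes. The genotype differences of the 10 genes are therefore given as a description, without a test.

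TNF-family receptors sit in the cell membrane and are engaged by ligands that act as trimers on a neighbouring cell. The costimulatory members recruit TRAF adaptor proteins and signal to NF-kB, which adds to the signal a T cell receives through its antigen receptor. OX40, GITR, 4-1BB and CD27 are best known on T cells, GITR and OX40 at high levels on regulatory T cells, and 4-1BB and CD27 also on natural killer (NK) cells. CD40 is the receptor of B cells, dendritic cells and macrophages, and CD40L is mainly made by activated CD4 T cells.

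Bulk RNA was sequenced from 11 tumors of Rag2-/- mice, which cannot rearrange antigen receptor genes and so lack mature T and B cells, and from 8 tumors of Rag2+/- littermates, which have them. In both groups the tumor was started in the gastrocnemius muscle of mice aged 6-10 weeks with an adenovirus that carried Cas9 and a guide RNA against p53 (Adeno-sgp53-Cas9), followed by 300 µg of the carcinogen 3-methylcholanthrene (MCA). Tumors of 70-150 mm3 were taken without any treatment, 1 library per tumor, so that both groups share the p53 guide and the carcinogen and differ in the Rag2 genotype. Rag2-/- mice keep NK cells and the whole myeloid compartment. Tumors are numbered within each genotype in the order of deposit.

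Values are log2(normalized FPKM + 0.1), where FPKM is the number of fragments per kilobase of transcript, scaled to the mapped fragments, upper-quartile normalized, and a gene without fragments stands at the floor of -3.32. Depth per library was estimated from the spacing of low values at 24.8-33.7 M fragments in 18 libraries and 5.23 M in Rag2-/- tumor 10. A group of 3 libraries stood apart: the shallow Rag2-/- tumor 10, and Rag2-/- tumor 9 and Rag2+/- tumor 5, where 116 and 246 genes were at the floor although their median in the other tumors was above 0. Rag2+/- tumor 5 also had the highest skeletal muscle gene level (a list mean of 12.4, against 3.68 to 11.2 in the other tumors) and 212 single-transcript genes at 5-7 estimated fragments against 146 at 1-3. Rag2+/- tumor 8 came next by these measures, with 113 such genes at the floor and 236 genes at 5-7 fragments against 201 at 1-3. The main results are also given without the 3 libraries, and without these and Rag2+/- tumor 8. Cd3e, an invariant chain of the T cell receptor complex, was at the floor in all 11 Rag2-/- tumors and above it in all 8 Rag2+/- tumors. The Rag2 row itself was above the floor in every tumor, at -2.05 to 0.36 in Rag2-/- and -2.33 to -0.57 in Rag2+/-; a value over the whole gene does not show which part of it the fragments came from.

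Several members are chromosomal neighbours. In GRCm38 (GENCODE vM21 models), Tnfrsf4 lies on chr4:156013843-156016612 and Tnfrsf18 on chr4:156026164-156028895, both on the plus strand, with 9.55 kb and no protein-coding gene between them. Tnfrsf9 is on the same chromosome, at chr4:150914562-150946102. The ligand genes Tnfsf4 (chr1:161395409-161418410) and Tnfsf18 (chr1:161494655-161505290) lie 76.2 kb apart on the plus strand of chromosome 1, and Tnfsf9 (chr17:57105325-57107757, plus) and Cd70 (chr17:57145997-57149777, minus) lie 38.2 kb apart on chromosome 17. Cd27 is at chr6:125232622-125237010 on the minus strand, Cd40 at chr2:165055627-165072948 and Cd40lg at chrX:57212143-57224042, both on the plus strand.

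The stretches before the RefSeq starts of the 3 receptor genes that were lower in Rag2-/- tumors are shown because they are the start regions of genes that moved in the same direction. They are from GRCm38.p6, read 5′ to 3′ on the strand of the gene, at chr4:156013445-156013694 (plus) for Tnfrsf4, chr4:156026072-156026163 (plus) for Tnfrsf18 and chr6:125237028-125237277 (minus) for Cd27, and each ends before the first base that GENCODE places in an exon. Capitals mark the NFAT core GGAAAA on either strand.
Tnfrsf4: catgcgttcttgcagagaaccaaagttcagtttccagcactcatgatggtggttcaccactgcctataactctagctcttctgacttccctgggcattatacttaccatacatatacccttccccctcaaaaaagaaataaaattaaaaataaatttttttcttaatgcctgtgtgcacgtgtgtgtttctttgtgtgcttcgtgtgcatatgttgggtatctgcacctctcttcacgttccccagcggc
Tnfrsf18: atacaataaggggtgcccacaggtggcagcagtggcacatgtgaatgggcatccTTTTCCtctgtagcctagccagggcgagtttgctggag
Cd27: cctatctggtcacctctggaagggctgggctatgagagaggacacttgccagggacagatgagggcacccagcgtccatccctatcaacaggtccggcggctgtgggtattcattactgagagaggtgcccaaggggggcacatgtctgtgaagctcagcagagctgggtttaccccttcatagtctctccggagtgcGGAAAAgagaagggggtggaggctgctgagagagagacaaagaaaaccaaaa
Both strands were searched for the NFAT core, the RUNX core TGTGGT, the AP-1 site TGANTCA and the NF-kB consensus, and the motifs do not overlap here. Tnfrsf18 held 1 NFAT core, at bases 55-60 of its 92-base window on the opposite strand, and Cd27 held 1 at bases 199-204 on its own strand. No other match to the 4 motifs was found in these windows. The NFAT core was also found before the starts of members that were not lower in Rag2-/- tumors, in Tnfrsf9 (bases 113-118 of 1 of its windows) and in Tnfsf18 (bases 48-53 and 180-185). Of 32851 mouse promoters, 8.70% held the NFAT core in a window of 92 bases and 20.4% in one of 250 bases. In 250 bases, the shares were 14.0% for RUNX, 6.75% for AP-1 and 3.90% for NF-kB. A match is a description of the letters and not a shown binding site.

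Among the receptors, Tnfrsf4, Tnfrsf18 and Cd27 were lower in the Rag2-/- tumors, by about the same amount, while Tnfrsf9 and Cd40 had similar levels in both genotypes. Of the 5 ligands, Tnfsf9 was well above the floor and the other 4 were low or at it. All 5 differed by less than 1 log2 unit on the scale used here. Under other settings the difference ran from 0.15 to 1.04 for Tnfsf4, from 0.15 to 1.50 for Tnfsf18 and from -1.71 to -0.13 for Cd40lg.

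Tnfrsf4 stood at -0.89, -1.58, -0.73, -0.74, -0.54, -0.60, 1.06, -1.02, 0.92, -0.50 and -1.96 in Rag2-/- tumors 1 to 11. In Rag2+/- tumors 1 to 8 it stood at 1.83, 1.16, 1.22, 3.53, -1.92, 2.38, 2.22 and 1.66. All Rag2-/- tumors but 7 and 9 lay below 0, and 7 of 8 Rag2+/- tumors lay above the highest Rag2-/- tumor. Rag2+/- tumor 5 was the exception, next to the lowest Rag2-/- tumor, so that the groups overlapped. The Rag2-/- mean was -0.60 ± 0.90 (SD, n = 11) and the Rag2+/- mean 1.51 ± 1.58 (SD, n = 8). Rag2-/- minus Rag2+/- was thus -2.11 with a standard error of 0.54, or 4.31-fold higher in Rag2+/- on this scale. With a pseudocount of 1 in place of 0.1 the difference was -1.35. Median normalized FPKM was 0.503 in Rag2-/- and 3.25 in Rag2+/-, which stood for about 13 and 65 fragments per library.

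Tnfrsf18, the neighbour of Tnfrsf4, ranged from -1.21 to 0.81 in the Rag2-/- tumors, with a median of -0.11. The 8 Rag2+/- tumors stood at 2.82, 1.81, 1.60, 3.12, 0.47, 2.32, 2.13 and 1.75. Here 9 of 11 Rag2-/- tumors were below every Rag2+/- tumor, and the overlap came from Rag2-/- tumors 7 (0.66) and 9 (0.81) against Rag2+/- tumor 5. Rag2-/- averaged -0.16 ± 0.58 (SD, n = 11) and Rag2+/- 2.0 ± 0.82 (SD, n = 8), which differ by -2.16 (standard error 0.32), 4.47-fold on this scale. With a pseudocount of 1 the difference was -1.46. Its 1524 exonic bases share 414 with the antisense gene Gm16008, whose mean was -1.0 in Rag2-/- and -1.15 in Rag2+/-. The library kit is not stated to keep strand, so reads of the pair cannot be told apart there.

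Cd27, which supports the survival of activated T cells and is also found on NK cells, ranged from -2.48 to -0.41 in 10 Rag2-/- tumors and reached 1.51 in tumor 9. In Rag2+/- tumors 1 to 8 it stood at 1.32, -0.40, -0.60, 1.39, 2.10, 1.06, 2.16 and 0.81. The Rag2+/- group was therefore wide, with tumors 2 and 3 at the level of the higher Rag2-/- tumors. Unlike Tnfrsf4 and Tnfrsf18, Cd27 was among its highest in Rag2+/- tumor 5. Rag2-/- averaged -1.18 ± 1.06 (SD, n = 11) and Rag2+/- 0.98 ± 1.02 (SD, n = 8), which differ by -2.16 (standard error 0.47), 4.47-fold on this scale. With a pseudocount of 1 the difference was -1.09, and with the mean of the skeletal muscle list as a covariate it was -1.54.

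Tnfrsf9, which is induced on activated CD8 T cells and NK cells, was a well-expressed member in both genotypes. Rag2-/- tumors ranged from 0.65 to 3.40 around a median of 2.32. Rag2+/- tumors stood at 2.88, 1.03, 2.27, 3.40, -3.32, 3.50, 2.69 and 0.85, so that 7 of 8 lay within or next to the Rag2-/- range and tumor 5 was at the floor. With tumor 5 the difference was 0.60 (standard error 0.71). Leaving out the 3 libraries that stood apart, it was -0.22, with 2.16 ± 1.03 (SD, n = 9) in Rag2-/- and 2.37 ± 1.07 (SD, n = 7) in Rag2+/-. About 79 to 533 fragments stood behind each Rag2-/- value.

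Cd40 was the highest member by median in both genotypes, at a normalized FPKM of 6.23 in Rag2-/- and 5.82 in Rag2+/-. Its log2 values ran from 1.73 to 3.16 in 10 Rag2-/- tumors and from 1.61 to 3.46 in the 8 Rag2+/- tumors, which overlapped nearly in full. Rag2-/- tumor 9 was far above all others, at 5.66. The difference was 0.26 (standard error 0.37) over all tumors and -0.03 without the 3 libraries.

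**Figure D1:**
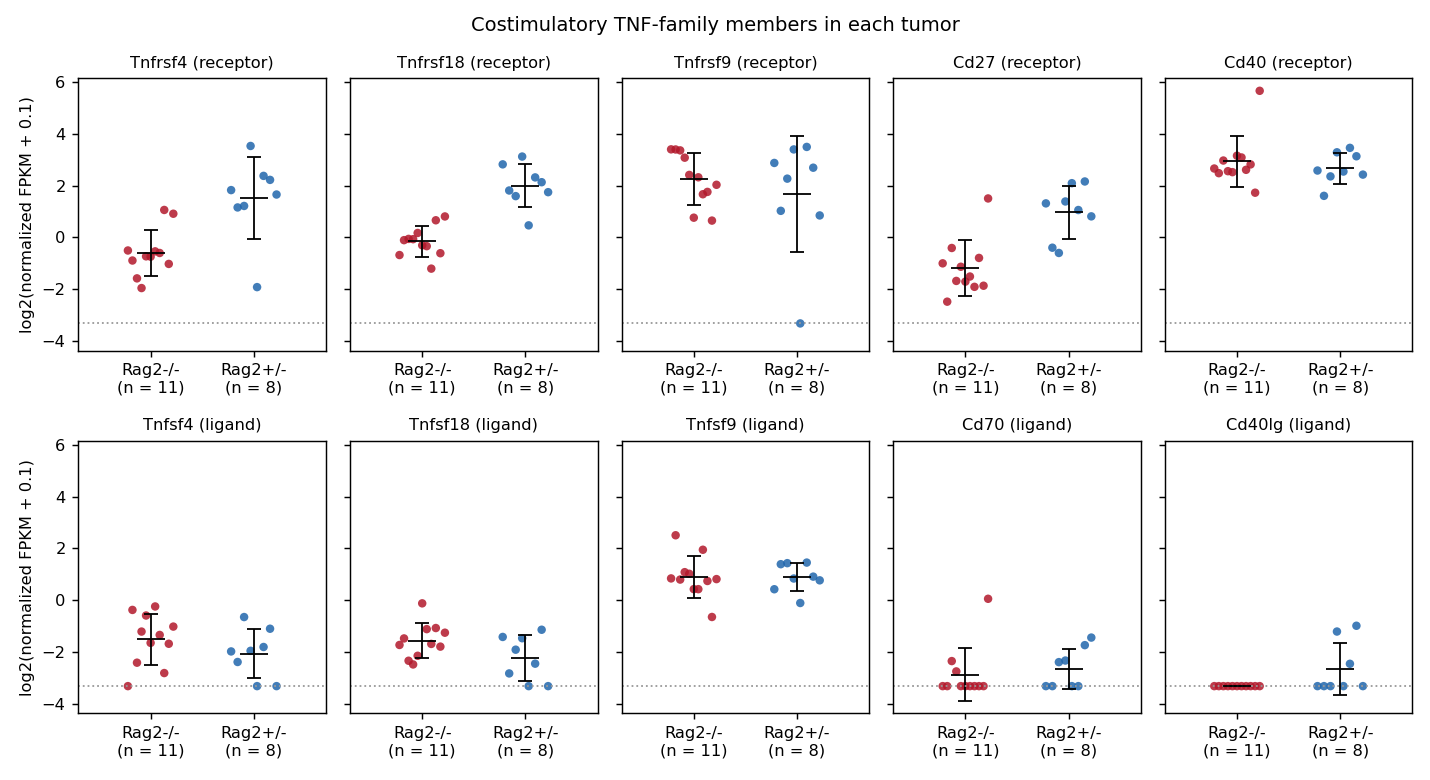
Each point is 1 tumor, the vertical axis is log2(normalized FPKM + 0.1), the black marks are the mean ± SD and the dotted line is the floor at -3.32; the upper row holds receptors and the lower row ligands. Tnfrsf4, Tnfrsf18 and Cd27 sit lower in most of the 11 Rag2-/- tumors than in the 8 Rag2+/- tumors, Tnfrsf9 and Cd40 share a range, and Cd40lg is at the floor in every Rag2-/- tumor.

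Tnfsf9, made by antigen-presenting cells and by some tumor cells, stood at -0.65 to 2.51 in Rag2-/- and -0.11 to 1.45 in Rag2+/- tumors, with a difference of 0.02 (standard error 0.33). Its exons share 192 of 1290 bases with the opposite-strand gene Gm11110. Tnfsf4, made by antigen-presenting cells and endothelium, was above the floor in 10 of 11 Rag2-/- tumors and 6 of 8 Rag2+/- tumors. It averaged -1.52 ± 1.0 (SD, n = 11) in Rag2-/- and -2.07 ± 0.95 (SD, n = 8) in Rag2+/-, which differ by 0.55 (standard error 0.44). Tnfsf18, made by antigen-presenting cells and endothelium, reached its highest value of -0.12 in Rag2-/- tumor 4 and was at the floor in Rag2+/- tumors 5 and 8. Its difference was 0.67 (standard error 0.35), or 1.50 with a pseudocount of 0.01. Without the 3 libraries that stood apart, the differences of Tnfsf4 and Tnfsf18 were 0.52 and 0.49. With Rag2+/- tumor 8 also left out, they were 0.28 and 0.29. The values of Tnfsf4 and Tnfsf18 rested on 0 to 42 fragments per library.

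Cd70 and Cd40lg did not reach the number of tumors above the floor needed for the fit across genes. Cd70, the ligand of CD27, was above the floor in 3 of 11 Rag2-/- and 4 of 8 Rag2+/- tumors, mostly on 1 to 4 fragments, and highest in Rag2-/- tumor 9 (0.05, about 12 fragments). Cd40lg was at the floor in all 11 Rag2-/- tumors. It was above the floor in Rag2+/- tumors 4 (-1.21), 6 (-2.46) and 7 (-0.99), on about 10, 3 and 9 fragments. At this depth a value at the floor is a transcript not detected rather than one shown to be absent.

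FPKM is per length, so levels may be set side by side between genes. In the Rag2-/- tumors the order by median was Cd40, Tnfrsf9, Tnfsf9, Tnfrsf18, Tnfrsf4, Tnfsf4, Cd27, Tnfsf18 and then Cd70 and Cd40lg at the floor. In the Rag2+/- tumors it was Cd40, Tnfrsf9, Tnfrsf18, Tnfrsf4, Cd27, Tnfsf9, Tnfsf4, Tnfsf18, Cd70 and Cd40lg. Neighbours at the top were not separated, since Cd40 exceeded Tnfrsf9 in 7 of 11 and 5 of 8 tumors. In contrast, Tnfsf9 exceeded Tnfrsf18 in 10 of 11 Rag2-/- tumors. Tnfrsf4 exceeded its ligand Tnfsf4 in 7 of 11 Rag2-/- tumors, by a median of 0.74 log2 units, and in 8 of 8 Rag2+/- tumors, by 3.68. Tnfrsf18 exceeded Tnfsf18 by a median of 1.37 in Rag2-/- and 4.42 in Rag2+/- tumors. For Tnfrsf9 over Tnfsf9 the medians were 1.30 and 1.31.

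In the fit across all genes (limma, 18374 genes tested), 24 genes had an adjusted p under 0.05, all of them lower in Rag2-/- tumors, which is 0.131% of those tested. The direction was not as uniform under every alternative: without Rag2-/- tumor 9 the count was 43, of which 32 were lower and 11 higher in Rag2-/-. It was 15 without Rag2+/- tumor 4 or without Rag2+/- tumor 7. In 0.0762% of genes tested the 2 groups did not overlap, and all 10 members overlapped. Without the 3 libraries that stood apart, the groups of Tnfrsf4 (at most 1.06 in Rag2-/- and at least 1.16 in Rag2+/-) and of Tnfrsf18 (at most 0.66 and at least 1.60) no longer overlapped, with differences of -2.78 and -2.43. Over all genes tested on those 9 and 7 tumors, 0.155% did not overlap, of which nearly all were lower in Rag2-/- (0.149%). With Rag2+/- tumor 8 also left out, Tnfrsf4 and Tnfrsf18 again did not overlap, beside 0.183% of all genes (0.178% lower in Rag2-/-). Since these genes were chosen on this contrast, nothing further is read from the counts.

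Several marker lists of other cells were also lower in Rag2-/- tumors, while the NK cell list was higher. In bulk tumors, fewer cells of a type and less RNA per cell cannot be told apart. The mean of 14 T cell genes was -1.57 to -0.47 in Rag2-/- and 0.51 to 2.73 in Rag2+/- tumors, and 8 of the 14 were called lower. The mean of 6 regulatory T cell genes was -2.21 to -0.77 and -1.03 to 1.67, with 1 of 6 (Ctla4) called. Foxp3, the factor that defines regulatory T cells, was above the floor in all 19 tumors, at a mean of -1.25 in Rag2-/- and 0.46 in Rag2+/- tumors. The NK cell genes (Ncr1, Klrb1c, Klrk1, Klre1, Klrd1, Eomes, Prf1, Nkg7 and Gzma) were 0.52 to 2.36 and -1.30 to 1.79, higher by 0.99 in Rag2-/-. Of these, 8 were higher in Rag2-/- and 5 had a limma unadjusted p under 0.05, beside 14.9% of all genes tested. Called were 0 of 9. The 10 skeletal muscle genes were 3.68 to 10.9 and 5.84 to 12.4, lower by 2.19 in Rag2-/-, with 0 of 10 called. Plasma cell genes were -1.01 to -0.24 and 0.83 to 4.62, with 2 of 5 called lower, and 1 of 5 B cell genes tested was called lower. Macrophage genes were 6.26 to 7.91 and 5.16 to 6.92, and 0 of 8 were called, as were 0 of 8 dendritic cell, 0 of 6 endothelial, 0 of 4 lymph node stroma and 0 of 8 fibroblast and sarcoma genes tested. With the muscle mean as a covariate the differences were -2.19 for Tnfrsf4, -2.08 for Tnfrsf18 and -1.54 for Cd27. What part the cell types other than muscle had in the members' differences was not tested.

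Among the pathway genes tested outside the members, none passed the test between the genotypes. The members were chosen on this contrast and are described without a test, so this result does not set them apart from the rest of the pathway. Of 23 other TNF receptors 21 were tested, and of 13 other TNF ligands and 22 TRAF and NF-kB genes all were tested, and 0 of these 56 had an adjusted p under 0.05 in limma. At an unadjusted p under 0.05 there were 3, all receptors, against 14.9% of all genes tested. Median differences were -0.03 for the receptors, 0.25 for the ligands and 0.11 for the TRAF and NF-kB genes, beside 0.07 for all genes tested.

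Tnfrsf19, a receptor of progenitor cells, differed by -1.12 ± 0.46 (SE; limma adjusted p = 0.327). For Relt, a receptor of lymphoid tissue, the difference was -0.71 ± 0.31 (SE; limma adjusted p = 0.327). In the other direction Tnfrsf1a, the main receptor for TNF, differed by 0.34 ± 0.14 (SE; limma adjusted p = 0.327) and the death receptor Tnfrsf10b by 0.51 ± 0.29 (SE; limma adjusted p = 0.377). Among ligands the lowest p-values belonged to Fasl (-0.61, limma adjusted p = 0.48) and the lymphotoxin subunit Ltb (-0.86, limma adjusted p = 0.494) on the lower side. On the higher side they belonged to Tnfsf15 (0.43, limma adjusted p = 0.382) and Eda (0.26, limma adjusted p = 0.541). Among signalling genes they belonged to Rel (0.34, limma adjusted p = 0.345), Chuk (0.26, limma adjusted p = 0.358), Traf3 (-0.15, limma adjusted p = 0.541) and Ikbkg (-0.13, limma adjusted p = 0.653). None of these passed the threshold.

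**Figure D2:**
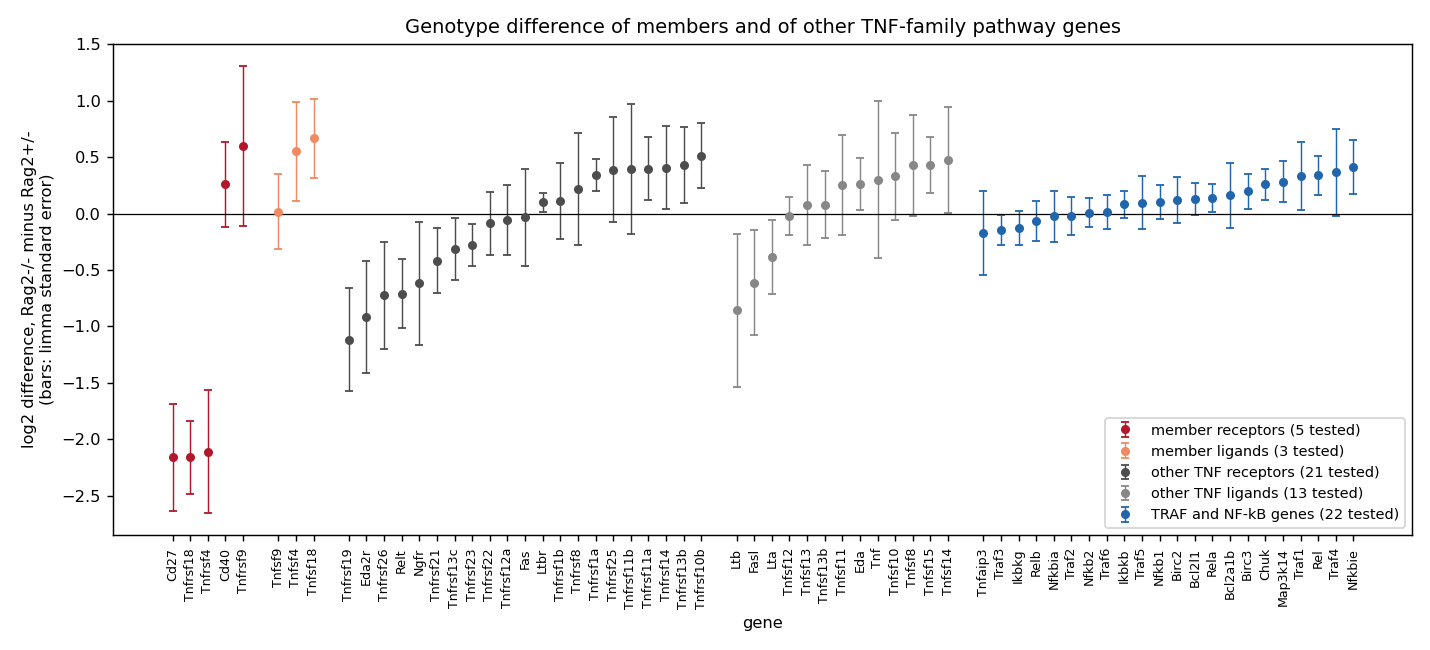
The vertical axis is the log2 difference, Rag2-/- minus Rag2+/-, with its limma standard error, for each gene tested, grouped by list. Cd27, Tnfrsf18 and Tnfrsf4 lie near -2.1, the other members tested lie between 0.02 and 0.67, and the genes outside the 10 members lie between -1.12 and 0.51.

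The tumors of 1 genotype differ among themselves, and this variation is separate from the contrast on which the genes were chosen. Each of the 8 members above the floor in at least 6 tumors of a genotype was set against the means of 9 marker lists, 72 relations in each genotype, with p-values adjusted over all 144. In Rag2+/- tumors 10 relations had an adjusted p under 0.05 by Pearson's r, all positive and all of Tnfrsf4, Tnfrsf18 or Tnfrsf9 with lymphocyte, NK cell or macrophage genes. By Spearman's rho only 2 of the 72 relations had an adjusted p under 0.05. In Rag2-/- tumors 0 passed, with 11 at an unadjusted p under 0.05. Whether the genotypes differ in these relations was not tested.

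Tnfrsf4 followed the T cell, regulatory T cell, NK cell and macrophage lists of the Rag2+/- tumors, by Pearson's r most closely the macrophage list. The 8 tumors were in the same order by Tnfrsf4, by the regulatory T cell list and by the T cell list (Spearman's rho = 1.0 for both, exact permutation p = 4.96e-05, adjusted p = 0.00357). Pearson's r was 0.93 with regulatory T cell genes and 0.85 with T cell genes (both exact permutation p = 2.48e-05, the smallest that 8 tumors allow, adjusted p = 0.00179). Without the 2 tumors farthest from the list's median, r was 0.95 and 0.88. With macrophage genes r was 0.99 (exact permutation p = 2.48e-04, adjusted p = 0.0119) and rho 0.95 (exact permutation p = 0.00114, adjusted p = 0.0548). With NK cell genes r was 0.90 (exact permutation p = 0.00288, adjusted p = 0.0418) and rho 0.83 (exact permutation p = 0.0154, adjusted p = 0.138).

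Tnfrsf18 had its highest r with NK cell genes (0.96, exact permutation p = 4.46e-04, adjusted p = 0.0129), with a rho of 0.88 (exact permutation p = 0.00724, adjusted p = 0.116), and r was 0.88 without the 2 farthest tumors. With regulatory T cell genes r was 0.91 (exact permutation p = 0.0029, adjusted p = 0.0418) and fell to 0.67 without the 2 farthest. Tnfrsf9 had an r of 0.95 with NK cell genes (exact permutation p = 3.97e-04, adjusted p = 0.0129), of 0.97 with macrophage genes (exact permutation p = 7.69e-04, adjusted p = 0.0185) and of 0.83 with T cell genes (exact permutation p = 9.42e-04, adjusted p = 0.0194). The rho of Tnfrsf9 was 0.88, 0.86 and 0.88 in turn (exact permutation, lowest adjusted p = 0.116).

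These lists also rose and fell together: across the 8 tumors r was 0.95 between the T cell and regulatory T cell lists, 0.91 between T cells and NK cells and 0.82 between T cells and macrophages, so a member's relation to 1 list cannot be told apart from its relation to the others. Rag2+/- tumor 5 was the lowest tumor for these 3 receptors. Without the 3 libraries that stood apart, 1 of the 10 relations remained past the threshold, Tnfrsf4 with regulatory T cell genes (r = 0.97, exact permutation p = 1.98e-04, adjusted p = 0.0286, n = 7), while r of the other 9 was 0.73 to 0.96. With Rag2+/- tumor 8 also left out, 0 of the 10 remained, with r of 0.75 to 0.98 over 6 tumors, where an exact permutation p cannot go below 0.00139. With single Rag2+/- tumors left out in turn, the number of the 10 that passed was 1 without tumor 5, 2 without tumor 4, 4 without tumor 3, 6 or 7, 7 without tumor 8 and 9 without tumor 1 or 2. Relations outside the 10 passed without tumor 1 (1), tumor 6 (1) or tumor 8 (2). Tnfrsf4 with regulatory T cell genes passed without each tumor but 6 (r = 0.93, exact permutation p = 0.00298, adjusted p = 0.0536).

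Over all tumors of a genotype, Cd27 and Cd40 had no relation past the threshold. In all 8 Rag2+/- tumors the highest r of Cd27 was 0.66 with skeletal muscle genes (exact permutation p = 0.0845, adjusted p = 0.338). With lymph node stroma genes r was 0.63 (exact permutation p = 0.0924, adjusted p = 0.351). The r of Cd27 was only 0.36 with T cell genes, 0.19 with regulatory T cell genes and -0.16 with macrophage genes. These low values rest on tumor 5, where Cd27 was high and the lists were low: with any other 1 of the 8 tumors left out, r of Cd27 with T cell genes was 0.14 to 0.37. Without the 3 libraries that stood apart, r over the other 7 tumors was 0.82 with T cell genes (exact permutation p = 0.0234, adjusted p = 0.198), 0.72 with regulatory T cell genes (exact permutation p = 0.0581, adjusted p = 0.256) and 0.68 with macrophage genes (exact permutation p = 0.101, adjusted p = 0.354). For Cd40, r with T cell genes was 0.82 over the 8 tumors (exact permutation p = 0.0131, adjusted p = 0.0989) and 0.94 over the 7 (exact permutation p = 0.00198, adjusted p = 0.0952). With single Rag2+/- tumors left out, 1 relation of Cd40 passed, with lymph node stroma genes without tumor 6 (r = 0.95, exact permutation p = 0.00179, adjusted p = 0.045), where r was 0.61 over the 8 tumors and 0.14 to 0.66 without any other tumor. With macrophage genes the r of Cd40 was 0.43 over the 8 tumors and 0.88 over the 7 (exact permutation p = 0.0121, adjusted p = 0.164). In Rag2-/- tumors, where Cd3d, Cd3e and Cd3g were at or near the floor, the lowest p of a Pearson's r belonged to Tnfrsf9 with endothelial genes (r = -0.71, permutation p = 0.00476, adjusted p = 0.0558; rho = -0.70, permutation p = 0.0199, adjusted p = 0.169; r = -0.59 without the 2 farthest tumors). By rank the lowest p belonged to Cd27 with NK cell genes (rho = 0.82, permutation p = 0.0031, adjusted p = 0.112; r = 0.60, permutation p = 0.0447, adjusted p = 0.201; r = 0.63 without the 2 farthest tumors). Tnfrsf9 with NK cell genes had an r of 0.64 in the same tumors (permutation p = 0.0342, adjusted p = 0.176). The ligand Tnfsf18 had an r of 0.78 with macrophage genes (permutation p = 0.00917, adjusted p = 0.0889), which was 0.48 without the 2 farthest tumors.

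**Figure D3:**
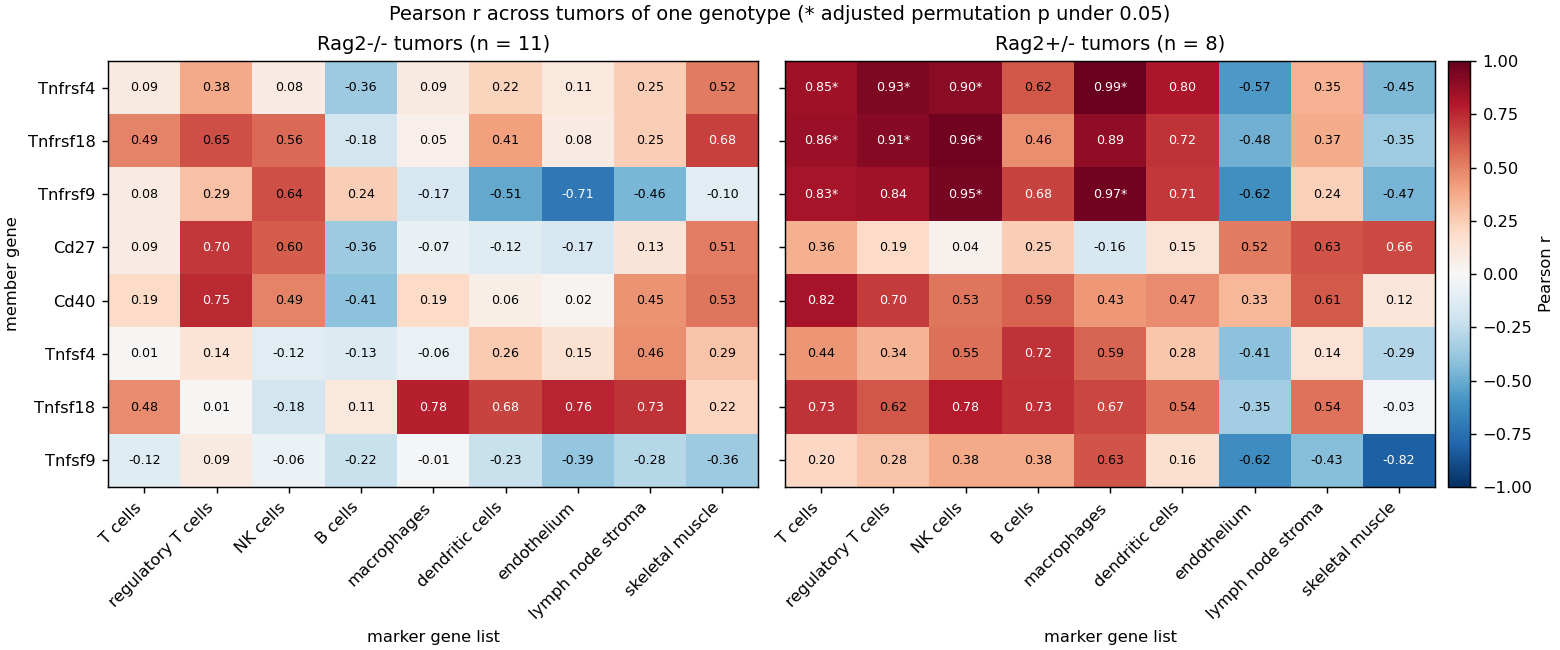
Each cell gives Pearson's r between a member (rows) and the mean of a marker list (columns) across the 11 Rag2-/- tumors on the left and the 8 Rag2+/- tumors on the right, with colour from -1 to 1 and an asterisk for an adjusted permutation p under 0.05. The 10 asterisks are in the rows of Tnfrsf4, Tnfrsf18 and Tnfrsf9 of the Rag2+/- tumors.

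No receptor and ligand pair had a relation past the threshold. Over 8 relations (3 receptor and ligand pairs and the neighbours Tnfrsf4 and Tnfrsf18, in each genotype), 1 had an adjusted p under 0.05. It was Tnfrsf18 with Tnfrsf4 in Rag2+/- tumors (r = 0.92, exact permutation p = 0.00201, adjusted p = 0.0161; rho = 0.86, exact permutation p = 0.0107, adjusted p = 0.0857). Without the 2 farthest tumors r was 0.60. With each Rag2+/- tumor left out in turn r was 0.81 to 0.97, lowest without tumor 5 (0.81, exact permutation p = 0.0187, adjusted p = 0.149). The relation missed the threshold without tumor 5 and without tumor 4 (r = 0.89, exact permutation p = 0.0153, adjusted p = 0.0917) and passed it without any other 1 of the 8. In Rag2-/- tumors the same pair had an r of 0.52 (permutation p = 0.102, adjusted p = 0.163) and a rho of 0.15. Among receptor and ligand pairs r ran from -0.15 for Tnfrsf4 with Tnfsf4 in Rag2-/- to 0.71 for Tnfrsf18 with Tnfsf18 in Rag2+/- (exact permutation p = 0.0444, adjusted p = 0.163). Cd70 and Cd40lg were above the floor in too few tumors to enter.

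**Figure D4:**
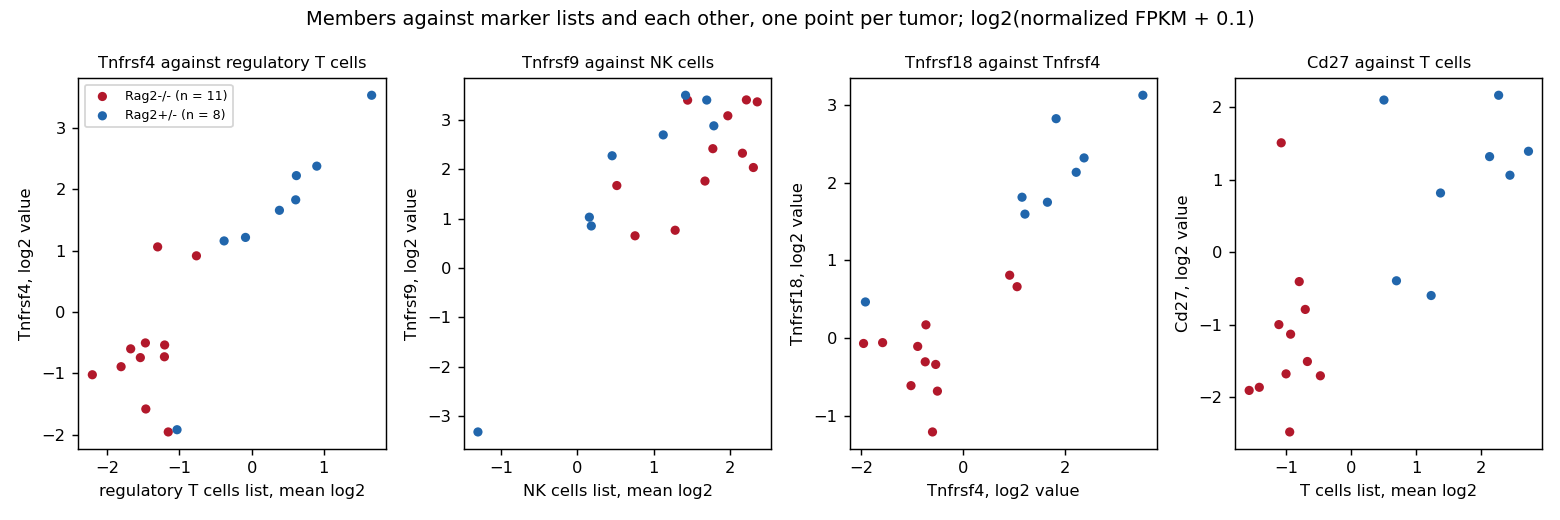
Each point is 1 tumor, red for Rag2-/- (n = 11) and blue for Rag2+/- (n = 8), and the axes are log2(normalized FPKM + 0.1) of a gene or the mean of a marker list. Tnfrsf4 rises with the regulatory T cell list in the blue points (r = 0.93), Rag2+/- tumor 5 is the low blue point of the first 3 panels, and in the last panel the same tumor has a high Cd27 at the lowest T cell list mean of the blue points (r = 0.36 with it and 0.82 without it).

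The genes most like each member were taken over the 19 tumors after removal of each genotype's mean, among 12826 genes with a mean above 0, as a description. Tnfrsf4 was most like Mefv (r = 0.86), Gsap (0.84) and Il2rg (0.84), the last being the shared receptor chain for interleukin-2 and related cytokines. Tnfrsf18 was most like Ifi214 (0.86), Il2rg (0.85) and Mmp25 (0.84). For Tnfrsf9 the closest were Clec5a (0.93), a myeloid receptor, Prf1 (0.92), which encodes perforin, and Klrd1 (0.90), the NK cell receptor CD94. Cd27 was closest to Stx4a (0.87), Tbc1d10c (0.86) and the ligand Tnfsf10 (0.84). Cd40 was closest to Irf1 (0.95), an interferon-induced factor, Tapbpl (0.94) and Psmb9 (0.93), which serve antigen presentation. Among ligands, Tnfsf9 was closest to Mief1 (0.82), Zmat3 (0.80) and Cxcl1 (0.77), Tnfsf18 to Map3k1 (0.82), Gpx1 (0.80) and Tyrobp (0.80), and Tnfsf4 to Mmp13 (0.71), Kcnk5 (0.67) and Ypel1 (0.66). The 19 tumors share their libraries across these values, so a library that stands apart enters every one of them.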

How the data were processed

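Bulk RNA-seq of 19 untreated sarcomas was used, 11 Rag2-/- and 8 Rag2+/-, with groups from the sample labels. The authors aligned reads to mouse B38 with the Omicsoft aligner and Ensembl gene models and deposited log2 values of upper-quartile-normalized FPKM with 0.1 added; the submitters' processing notes also name Trimmomatic 0.36, STAR 5.5.4b, HTSeq and mm10, with no role given. The library preparation was not stated to be stranded. Because the deposited values are log2 and not counts, no count model was used.

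The 10 genes and all gene lists were chosen with earlier results of these data known. Symbols were matched to 48349 of 48795 gene IDs, and 146 of 147 list genes were found. Genes above the floor in at least 8 of 19 tumors were fitted with limma 3.58.1 (R 4.3.3; genotype as the one term, intensity trend, Benjamini-Hochberg adjustment, threshold 0.05). As a check, tumor labels were shuffled on the real values and a constant shift was added to 200 of 18374 genes. The fit recovered 75% of genes shifted by 2 and 99% of those shifted by 4 log2 units. Recovery of differences that vary between tumors was not tested, and the share of false calls is not reported here. Correlations used two-sided permutation tests, exact for 8 tumors and with 100000 resamples for 11. Named genes were the 10 members, the pathway genes called or, where none was, the 2 of smallest p on each side of zero in a list, and the 3 genes most like each member. Depth was estimated from genes with 1 annotated transcript, whose low values were whole multiples of 1 fragment (within 0.05) for 77.3-89.7% of values; the fragment numbers cover counting error only. The study used littermates, but the labels do not say which tumors share a litter, so no litter term was fitted. The p-values treat the tumors as independent of each other, which tumors of the same litter may not be. Promoter windows are from RefSeq (GRCm38.p6), which gave 5 of the 10 genes. The alternatives tried were other tumors, filters, pseudocounts of 1 and 0.01, normalizations, a muscle covariate and leaving out each tumor.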

Additional observations from a re-analysis of the deposited data

Results flagged for a closer look

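Rag2+/- tumor 5 was the lowest of its group by a wide gap for 2 receptors. For Tnfrsf4 (-1.92, against 1.16 in the next tumor) the gap was 0.5645 of the group's whole range, and for Tnfrsf9 (-3.32, against 0.85) it was 0.612, both over Dixon's critical value for 8 tumors. The 11 Rag2-/- tumors were not put through this test, which was used for groups of at most 10; in them tumor 9 was the highest for Cd40 (5.66, against 3.16 in the next tumor) and for Cd70 (0.05, against -2.35). Chance flags about 1 in 20 groups, and the 10 members were looked at in the same 8 libraries. The same library had the highest skeletal muscle list mean, and its Cd27 (2.10) and Cd40 (2.54) were within the range of the other Rag2+/- tumors.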

How the results depend on the processing

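No paired analysis was possible because the labels pair no Rag2-/- tumor with a Rag2+/- tumor. The count of genes called between genotypes (24) was 40 (28 lower and 12 higher in Rag2-/-) with the 15 tumors listed for the study's figure and 4 among genes with a mean above 0, and ran from 15 (without Rag2+/- tumor 4 or 7) to 43 (without Rag2-/- tumor 9) when a tumor was left out; calls higher in Rag2-/- appeared under 11 of 30 alternatives. The 0 calls among the other TNF-family, TRAF and NF-kB genes were 0 under each alternative run. The members' differences moved by more than the spread between tumors in 4 cases: with a pseudocount of 1, Tnfrsf18 (-1.46) and Cd27 (-1.09), and with 0.01, Tnfsf18 (1.50) and Cd40lg (-1.71). Over the alternatives the difference of Tnfrsf4 ran from -2.83 to -1.35, of Tnfrsf18 from -2.51 to -1.46 and of Cd27 from -2.50 to -1.09. Relations of members to marker lists past the threshold fell from 10 to 1 with the 15 tumors and, in alternatives added after seeing the data, to 1 without the 3 libraries that stood apart and to 0 without these and Rag2+/- tumor 8. The Tnfrsf4 and Tnfrsf18 relation fell from 1 to 0 under all of these. With each Rag2+/- tumor left out in turn, also added after seeing the data, all relations to lists past the threshold, the first 10 or others, ran from 1 (without tumor 5) to 10, and relations of pairs from 0 (without tumor 4 or 5) to 1. A deeper library would be needed to read Cd70, Cd40lg, Tnfsf4 and Tnfsf18, which rest on few fragments.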
